A study of Mus musculus with 14 samples.

Results

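The direct comparison of Jmjd1a loss with Jmjd1b loss rests on 4 of the 14 libraries of the series, all from testicular germ cells of C57BL/6 mice at postnatal day 3 (P3). The 4 were chosen by their labels: P3 Jmjd1aKO replicates 1 and 2 (genotype Vasa-Cre; Jmjd1a-/-; Jmjd1b-/+) and P3 Jmjd1bKO replicates 1 and 2 (Vasa-Cre; Jmjd1a-/+; Jmjd1b-/-). Each genotype thus lacks either gene and keeps 1 copy of the other, and both carry Vasa-Cre, a recombinase driven by a germ cell promoter. P3 Ctrl, with Vasa-Cre and 1 copy of each gene, P3 DKO, with Vasa-Cre and neither gene, and P3 WT, labelled wild type, served as references, with 2 libraries each. The remaining 4 libraries, Ctrl and DKO at day 7 (P7), have the genotypes of P3 Ctrl and P3 DKO and enter the estimate of the spread. Neither a sort of the cells nor the origin of the replicates (separate animals or not) is in the labels, so p-values cover only the spread among the libraries, which may be technical.

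The files list Jmjd1a as Kdm3a and Jmjd1b as Kdm3b. Both encode oxygen-dependent demethylases of H3K9, the histone residue whose methylation marks repressed chromatin. A related family member is Jmjd1c. In the days after birth male germ cells, the prospermatogonia, leave a mitotic arrest, move to the wall of the tubule and become the first spermatogonia, some of which found the stem cell pool and some of which differentiate. Kdm3a is also known for its roles in sex determination and in spermatid maturation.

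Expression was measured as RPKM, read numbers scaled to the length of the transcript and the size of the library. Depth, estimated from the values themselves, was 40.7 and 26.3 M (mega) fragments in P3 Jmjd1aKO replicates 1 and 2, 43.6 and 26.2 M in P3 Jmjd1bKO, and 13.5 to 50.9 M over the series. The germ cell markers Ddx4, Dazl and Mael were abundant in all 4 libraries. Ddx4, the germ cell RNA helicase, stood at 207.8 and 224 RPKM in P3 Jmjd1aKO and at 252 and 226 RPKM in P3 Jmjd1bKO. Of the other germ cell markers, Elavl2 stood at 15.9 to 17.9 RPKM and Dppa3 at only 0.445 to 4.14 RPKM over the 4 libraries. The summed level of 29 Sertoli cell markers was 299.8 and 1570 RPKM in P3 Jmjd1aKO and 318 and 1853 RPKM in P3 Jmjd1bKO, against 267 to 452 RPKM in the other 10 libraries. Both replicate 2 libraries therefore stood apart, in either genotype. Sums of 16 Leydig markers (41.4 and 129.9 against 36.9 and 144.3 RPKM) and of 16 stromal markers (78.0 and 197.5 against 74.3 and 213 RPKM) followed the same split. The Leydig genes Hsd3b1 and Insl3 were listed at 0 in P3 Jmjd1aKO replicate 1. Libraries were for this reason compared within replicate number, and a log2 difference below is the mean of the 2 within-pair differences of log2(RPKM + 1), P3 Jmjd1aKO minus P3 Jmjd1bKO, with its SE from limma. Fewer cells of a type and less RNA per cell cannot be told apart in such bulk libraries.

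The deleted genes went with the labels, and RNA of both remained. Which exons are deleted is not in the labels, so reads may come from outside the deleted part. Kdm3a stood at 9.83 and 9.84 RPKM in P3 Jmjd1aKO and at 26.1 and 25.4 RPKM in P3 Jmjd1bKO, beside 28.4 and 26.3 RPKM in P3 Ctrl, which has as many copies of it as P3 Jmjd1bKO. The log2 difference was -1.30 ± 0.11 (limma, Benjamini-Hochberg adjusted p = 0.00128). Kdm3b stood at 9.81 and 13.9 RPKM in P3 Jmjd1aKO, 4.72 and 7.51 RPKM in P3 Jmjd1bKO and 10.2 and 13.5 RPKM in P3 Ctrl. Its libraries did not overlap between the genotypes, and its log2 difference of 0.86 ± 0.13 lay just outside the threshold of 0.05 (limma, adjusted p = 0.0501). Jmjd1c, the family member that neither genotype lacks, stood at 45.2 and 32.8 RPKM in P3 Jmjd1aKO and 45.1 and 30.4 RPKM in P3 Jmjd1bKO (log2 difference 0.05 ± 0.16). Its difference within pairs was much smaller than that between the replicates.

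Past the deleted genes, the genotypes differed in few single genes by the test and in many by direction. Of 13749 genes tested, 11 passed (0.0800% of all), 8 of them higher in P3 Jmjd1aKO (0.0582%) and 3 lower (0.0218%). At an unadjusted p under 0.05 there were 1129 higher (8.21%) and 1260 lower (9.16%). The count is sensitive to 162 microRNA and small nucleolar RNA loci in the table, of which 3 are among the 11. With these loci left out, 102 of 13587 genes passed, 74 higher (0.545%) and 28 lower (0.206%), and all 102 had the same sign in both pairs. A further 26 genes, among them Kdm3b, lay at adjusted p = 0.0501 with the loci kept. Fitted on the 4 libraries alone, with a single residual degree of freedom and the same pairing, 947 genes passed. Genes other than the 11 are therefore given by their values, with the call that leaves out the small RNA loci named where it was made.

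The 6 annotated protein-coding genes higher in P3 Jmjd1aKO were Ripk3, Dppa5a, Prph, Efna3, Gabbr1 and Slc2a5. Ripk3 (chromosome 14, 55784995 to 55788865 on GRCm38), a kinase of the necroptosis pathway, stood at 31.4 and 28.4 RPKM in P3 Jmjd1aKO and at 15.6 and 10.5 RPKM in P3 Jmjd1bKO. P3 Jmjd1bKO thus lay at the level of P3 Ctrl (15.9 and 12.8 RPKM), while P3 DKO was higher than either single genotype, at 48.5 and 41.4 RPKM. The log2 difference between the single knockouts was 1.16 ± 0.15 (limma, adjusted p = 0.0293). Dppa5a (chromosome 9, 78367052 to 78368177), an RNA-binding protein gene of primordial germ cells and pluripotent cells, stood at 82.5 and 90.1 RPKM against 52.97 and 48.3 RPKM. P3 Ctrl held 52.1 and 55.3 RPKM, again near P3 Jmjd1bKO, and P3 DKO 75.1 and 75.7 RPKM. Dppa5a rose by a log2 difference of 0.76 ± 0.09 (limma, adjusted p = 0.0293). Prph (chromosome 15, 99055174 to 99058978), which encodes the neuronal intermediate filament peripherin, was the least alike between replicates, with 8.82 and 4.22 RPKM in P3 Jmjd1aKO and 1.86 and 0.677 RPKM in P3 Jmjd1bKO. Within the pairs its log2 differences were close, 1.78 and 1.64, and together they gave 1.71 ± 0.22 (limma, adjusted p = 0.0293).

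Efna3 (chromosome 3, 89313899 to 89322965), a membrane-bound ligand of Eph receptors, stood at 18.3 and 11.5 RPKM in P3 Jmjd1aKO and at 10.1 and 6.36 RPKM in P3 Jmjd1bKO (log2 difference 0.78 ± 0.09, limma, adjusted p = 0.0247). An antisense gene, Gm15998, overlaps it, and the sources used here do not say whether strand was used in counting. Gabbr1 (chromosome 17, 37045966 to 37075067), a subunit of the metabotropic GABA receptor, stood at 5.91 and 3.84 RPKM against 2.25 and 1.47 RPKM (1.03 ± 0.14, limma, adjusted p = 0.0399). Slc2a5 (chromosome 4, 150119283 to 150144169), the fructose transporter gene, was the lowest of the 6 in RPKM, at 3.81 and 2.63 against 1.30 and 0.792 RPKM (1.04 ± 0.14, limma, adjusted p = 0.0343). For Efna3, Gabbr1 and Slc2a5 alike the 4 libraries of the single knockouts did not overlap, replicate 2 was the lower in each genotype, and P3 DKO stood above both P3 Ctrl libraries, for example at 8.33 and 9.25 RPKM of Gabbr1 against 2.66 and 2.03 RPKM. All 6 calls lay near the threshold: Dppa5a alone passed without the replicate term, Efna3 alone without a filter on low values, and none of the 6 without either P7 Ctrl library or without either pair.

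**Figure D1:**
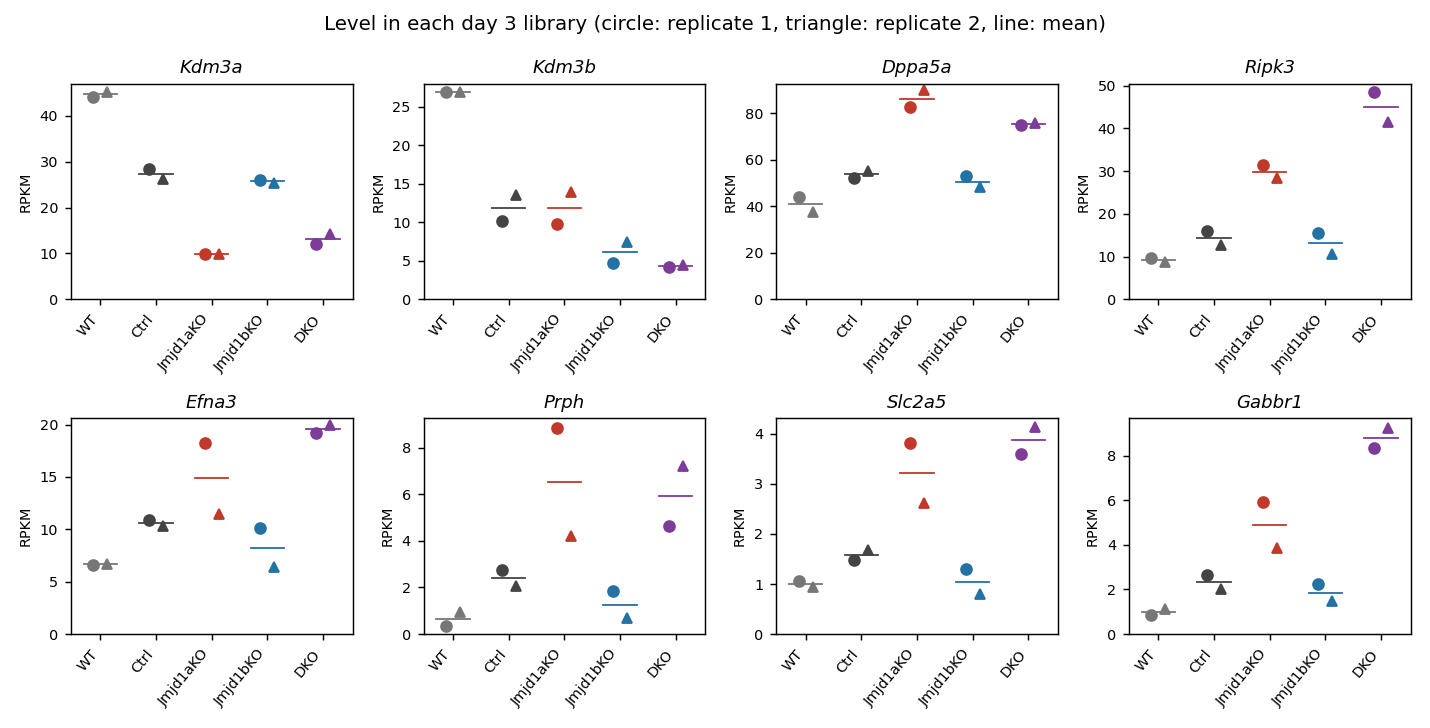
RPKM of Kdm3a, Kdm3b and the 6 protein-coding genes that passed as higher in P3 Jmjd1aKO, for the 2 libraries of each P3 group (points) and their mean (line), each axis starting at 0. For each of the 6 genes the mean of P3 Jmjd1bKO lies below that of P3 Ctrl. In P3 Jmjd1bKO the lower library is each time replicate 2, which carries high Sertoli transcripts. Ripk3 stands at 15.6 and 10.5 against 15.9 and 12.8 RPKM, so the higher P3 Jmjd1bKO library lies between those of P3 Ctrl. The means are not adjusted for the replicate and do not show that Jmjd1b loss lowers these genes.

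Promoters of 3 of these genes are shown because they span the range of CpG content among the 5 of the 6 that have an entry in the RefSeq promoter table (GRCm38.p6), which holds none for Dppa5a. Each is the 250 bases before the first listed start, with CpG dinucleotides in capitals.
Prph promoter, chr15:99054924-99055173, plus strand: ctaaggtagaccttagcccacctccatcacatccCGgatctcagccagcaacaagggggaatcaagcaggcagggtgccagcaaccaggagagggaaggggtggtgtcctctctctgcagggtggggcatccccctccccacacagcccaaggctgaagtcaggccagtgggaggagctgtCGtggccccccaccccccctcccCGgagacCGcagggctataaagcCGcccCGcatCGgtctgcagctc
Ripk3 promoter, chr14:55788858-55789107, minus strand: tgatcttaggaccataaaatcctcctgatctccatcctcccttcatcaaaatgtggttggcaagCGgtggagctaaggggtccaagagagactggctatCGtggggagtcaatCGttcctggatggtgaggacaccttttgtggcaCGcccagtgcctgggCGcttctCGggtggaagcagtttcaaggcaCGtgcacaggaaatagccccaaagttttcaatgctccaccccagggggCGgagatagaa
Efna3 promoter, chr3:89322940-89323189, minus strand: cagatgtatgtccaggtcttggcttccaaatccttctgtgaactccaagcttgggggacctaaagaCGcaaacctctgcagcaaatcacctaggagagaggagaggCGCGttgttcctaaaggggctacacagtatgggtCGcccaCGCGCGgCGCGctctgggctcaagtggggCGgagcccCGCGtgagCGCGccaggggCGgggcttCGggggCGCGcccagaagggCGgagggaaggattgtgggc
The windows hold 7 CpG in Prph, 8 in Ripk3 and 19 in Efna3, and those of Slc2a5 and Gabbr1 hold 15 and 16. The motif CACGTG, which reads the same on both strands, was found in the Ripk3 window and in none of the other 4. It was present in 8.72% of the 10340 windows of tested genes. A match is a description of the letters and not a bound site.

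Fewer transcripts were lower in P3 Jmjd1aKO by the test: Kdm3a, 1700015G11Rik and Mir8105. The uncharacterised gene 1700015G11Rik (chromosome 7, 52011683 to 52015728) was named with its values known. It stood at 0.473 and 0.180 RPKM in P3 Jmjd1aKO and at 5.49 and 3.50 RPKM in P3 Jmjd1bKO. It thus reached the 1 RPKM needed for testing only through P3 Jmjd1bKO, the genotype where it was high. P3 Ctrl held 5.86 and 4.66 RPKM, and P3 DKO was listed at 0 and 0.768 RPKM. Its log2 difference was -2.04 ± 0.24 (limma, adjusted p = 0.0247), the largest in size among the 8 calls that are not microRNA loci. It did not pass without the replicate term, without a filter, with a pseudocount of 0.1, or without either pair, either P3 WT or either P7 Ctrl library.

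The 3 microRNA loci that passed, likewise named with their values known, were each listed at 0 in both libraries of the genotype where they were lower. Each therefore entered the test only through the genotype where it was high. Mir6898 was listed at 46.2 and 40.4 RPKM in P3 Jmjd1aKO and at 0 in P3 Jmjd1bKO, Mir23a at 54.1 and 45.2 RPKM in P3 Jmjd1aKO and at 0 in P3 Jmjd1bKO, and Mir8105 at 20.2 and 22.9 RPKM in P3 Jmjd1bKO and at 0 in P3 Jmjd1aKO. Mir6898 and Mir8105 were at 0 in P3 Ctrl, P3 DKO and P3 WT as well, whereas Mir23a was listed at 111.7 and 50.8 RPKM in P3 Ctrl. The kit named in the labels makes libraries from mRNA, and Mir6898 lies within Kansl3 on the same strand, so these values are not levels of mature microRNA. The mature sequences in RefSeq (GRCm38.p6), shown to identify what is annotated at the loci with the seed (bases 2 to 8) in capitals, share no seed.
mmu-miR-6898-5p, chr1:36348732-36348753, minus strand: uGUAAGGGgagaugcagggagc
mmu-miR-6898-3p, chr1:36348688-36348708, minus strand: aAGUCUCUuuguaccuucucu
mmu-miR-23a-5p, chr8:84208527-84208548, plus strand: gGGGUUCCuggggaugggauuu
mmu-miR-23a-3p, chr8:84208563-84208583, plus strand: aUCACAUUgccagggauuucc
mmu-miR-8105, chr10:128458732-128458753, plus strand: aGGCGACUggcgagacccgaag

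The next genes in rank, taken for the size of the smaller of their within-pair differences and without passing in the fit of all 13749 genes, included on the higher side Cd209c, Hoxb1, Eml2, C3, Crabp2 and Dnmt3l. Cd209c, a C-type lectin gene with close paralogs that can share reads, stood at 78.1 and 48.0 RPKM in P3 Jmjd1aKO and at 9.15 and 9.90 RPKM in P3 Jmjd1bKO. P3 DKO held 374 and 137 RPKM, far above both. The log2 difference between the single knockouts was 2.57 ± 0.41 (limma, adjusted p = 0.0501, and 0.0287 with small RNA loci left out). Dnmt3l, the cofactor of de novo DNA methylation in prospermatogonia, stood at 35.8 and 15.1 RPKM against 16.6 and 4.83 RPKM. Its groups overlapped, since replicate 2 was lower in both genotypes, yet the pair differences were 1.06 and 1.47 (limma, adjusted p = 0.0646, and 0.0393 with small RNA loci left out). The catalytic Dnmt3a stood at 47.9 and 40.3 against 41.0 and 34.1 RPKM, and Dnmt3b at 22.95 and 24.9 against 32.5 and 29.7 RPKM, neither past the test in either fit. Eml2, a microtubule-associated protein gene, stood at 16.3 and 13.3 against 5.43 and 5.91 RPKM (log2 difference 1.24 ± 0.19). Crabp2, which carries retinoic acid in the cell, stood at 13.2 and 7.06 against 5.78 and 1.77 RPKM (1.30 ± 0.23). The complement gene C3 stood at 9.95 and 2.72 against 3.92 and 0.749 RPKM (1.12 ± 0.18), with overlapping groups. With small RNA loci left out, Eml2, Crabp2 and C3 passed (limma, adjusted p = 0.0287, 0.0383 and 0.0339).

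The lower side of the same ranking, given by values, was led by Ccnd1 and Tcl1. Ccnd1, the cyclin that drives entry into the cell cycle, stood at 14.9 and 26.5 RPKM in P3 Jmjd1aKO and at 44.3 and 61.7 RPKM in P3 Jmjd1bKO. P3 Ctrl (36.0 and 60.6 RPKM) lay beside P3 Jmjd1bKO, and P3 DKO (12.9 and 23.9 RPKM) beside P3 Jmjd1aKO. The log2 difference was -1.35 ± 0.27 (limma, adjusted p = 0.0696, and 0.0422 with small RNA loci left out). Gfra1, the receptor for the niche factor GDNF on spermatogonial stem cells, stood at 67.9 and 47.7 against 148.6 and 90.2 RPKM. Despite this separation its SE was large, and the log2 difference of -1.01 ± 0.34 passed in neither fit (limma, adjusted p = 0.167 and 0.128). Tcl1, a cofactor of the AKT kinase, stood at 45.7 and 38.9 against 97.7 and 84.4 RPKM (-1.09 ± 0.25, limma, adjusted p = 0.0890 and 0.0601). Rasa3, a GTPase-activating protein gene, stood at 6.88 and 8.63 against 13.7 and 21.1 RPKM (-1.05 ± 0.16, limma, adjusted p = 0.0501 and 0.0287). The other 7 in rank were Sbsn, Cd7, Krt19, Platr5, Btg3, Mgmt and Tnnt2, with log2 differences from -1.40 (Tnnt2) to -0.96 (Mgmt), none past the threshold in either fit.

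The difference between the genotypes recurred in the pairs, which share no library. Across the 13587 genes other than small RNA loci, the replicate 1 difference and the replicate 2 difference correlated at r = 0.62 (Spearman 0.62), and at r = 0.35 (Spearman 0.61) with the loci kept. Genes are not independent replicates, and these values are descriptions. The SD of the difference across genes was 0.46 in either pair, below the SD of 0.61 between the replicates of P3 Jmjd1aKO and 0.69 between those of P3 Jmjd1bKO. The sign was shared by 72.9% of genes. Higher by at least 0.5 (log2) in both pairs were 365 genes, lower in both 129, and opposed by that much 20 and 19. Without overlap between the genotypes there were 1946 higher genes (14.2%) and 2355 lower (17.1%). Random labels on 2 against 2 libraries separate the groups at a rate of 0.333 over both directions. These shares are thus near chance, and a lack of overlap alone shows no difference.

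**Figure D2:**
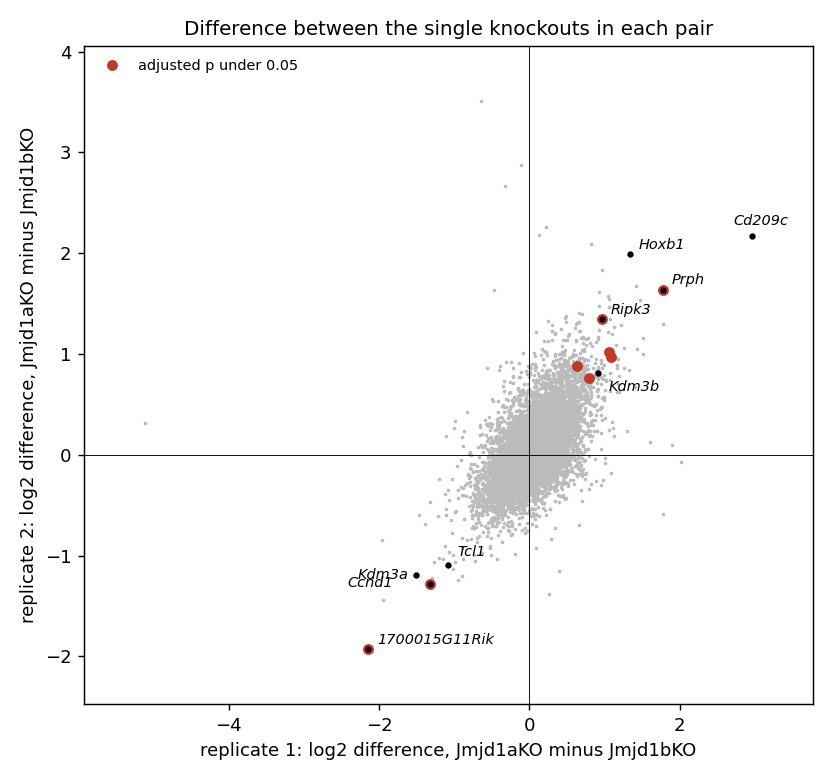
Log2 difference P3 Jmjd1aKO minus P3 Jmjd1bKO in the replicate 1 libraries (horizontal) and in the replicate 2 libraries (vertical) for the 13587 tested genes that are not small RNA loci (grey points), with the 8 such genes past the threshold in red and genes named in the text in black. The cloud runs along the diagonal (r = 0.62), and Cd209c, Prph and Hoxb1 lie at the upper right and 1700015G11Rik at the lower left.

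The 365 higher and 129 lower genes differed from all tested genes in level and in promoter composition, values given here without a test. Median RPKM over the 4 libraries was 3.90 in the higher genes, 13.1 in the lower genes and 11.1 in all. The median number of CpG in the 250 bases before the start was 9 in the 241 higher genes with a promoter entry, 13 in the 76 lower genes and 16 in the 10340 of all. CACGTG was present in 7.88% of these windows in the higher genes and 10.5% in the lower. Of the higher genes 6.59% were X-linked and of the lower 0.8%, against 3.77% of all tested. In a set of 129 genes the lower share rests on very few genes. The higher set holds members of the X-linked Rhox cluster described below, such as Rhox1. Transcript length and GC content had little relation to the difference across genes (r = -0.03 with log length and 0.08 with GC).

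The lists of cell division genes had the lowest medians of the gene lists drawn up for this tissue. All 27 tested genes of G2 and mitosis had a negative difference, 26 of them in both pairs, and the median was -0.50 (-0.56 and -0.47 in the pairs) beside -0.01 for all genes tested, of which 38.9% were lower and 34.0% higher in both pairs. At an unadjusted p under 0.05, 23 of 27 were lower, against 9.16% of all genes tested, and none passed after adjustment. Aurkb, the mitotic kinase, stood at 21.3 and 33.4 RPKM in P3 Jmjd1aKO and at 35.4 and 55.4 RPKM in P3 Jmjd1bKO (-0.71 ± 0.18, limma, adjusted p = 0.111). Its replicate 2 was the higher in each genotype, and the genotypes lay close without overlapping. Cenpa, the centromeric histone, stood at 88.2 and 116.7 against 132 and 159 RPKM (-0.51 ± 0.12, limma, adjusted p = 0.0945). Among 31 genes of DNA replication and S phase, 28 were lower in both pairs and 1 higher, and 24 were lower at an unadjusted p under 0.05, with a median of -0.37 (-0.40 and -0.35). Mcm2, a subunit of the replicative helicase, stood at 125 and 138.5 against 191 and 204.5 RPKM (-0.58 ± 0.10), and Mcm5, another subunit, at 79.7 and 98.95 against 127 and 136 RPKM (-0.56 ± 0.10). Neither passed with all loci (limma, adjusted p = 0.0587 and 0.0626), and both passed with small RNA loci left out (0.0383 and 0.0394). The replication clamp gene Pcna stood at 199 and 229 against 270.1 and 290.4 RPKM (limma, adjusted p = 0.0890). Under quantile normalization both list medians were smaller in size but stayed negative, at -0.39 for G2 and mitosis and -0.26 for S phase.

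Ribosomal protein and oxidative phosphorylation genes had negative medians that quantile normalization removed. Of 33 ribosomal protein genes 32 were lower in both pairs, with a median of -0.26 and 7 lower at an unadjusted p under 0.05. Of 30 genes of oxidative phosphorylation 24 were lower in both pairs, with a median of -0.14 and 12 at an unadjusted p under 0.05. Over all genes these shares were 38.9% and 9.16%. No member of either list passed, and under quantile normalization the medians were -0.01 for ribosomal proteins and 0.01 for oxidative phosphorylation. Atp5c1, a subunit of ATP synthase, stood at 167 and 236 against 214 and 294 RPKM (-0.34 ± 0.11, limma, adjusted p = 0.173). The 29 genes of hypoxia and glycolysis had a median of 0.01, and Pdk1, the kinase that holds pyruvate back from the mitochondrion, stood at 16.8 and 16.2 against 27.2 and 29.1 RPKM (-0.74 ± 0.13, limma, adjusted p = 0.0626, and 0.0393 with small RNA loci left out).

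Both lists of homeobox genes had positive medians, with no member past the threshold when all loci were tested. In the X-linked Rhox cluster, whose members are expressed in the reproductive tract, 10 of 18 genes reached the level for testing, 7 were higher in both pairs and none lower in both, 6 were higher at an unadjusted p under 0.05, and the median was 0.59 (0.55 and 0.53). Rhox1 stood at 35.2 and 34.7 RPKM in P3 Jmjd1aKO and 24.4 and 19.8 RPKM in P3 Jmjd1bKO (0.64 ± 0.10, limma, adjusted p = 0.0501, and 0.0376 with small RNA loci left out). Rhox10, needed for the stem cell pool, stood at 39.2 and 41.9 against 23.04 and 28.2 RPKM (0.65 ± 0.18, limma, adjusted p = 0.122). Rhox5 departed from the rest, at 19.4 and 14.9 against 34.5 and 14.8 RPKM. Rhox4d, at 2.74 and 1.63 against 0.929 and 0.369 RPKM, belongs to a set of near-identical copies, so its share of reads is uncertain. It reached 1 RPKM only in P3 Jmjd1aKO. The Hox clusters, a list chosen with the values known, had 15 of 39 genes tested, of which 13 were higher in both pairs and 12 higher at an unadjusted p under 0.05, with a median of 0.81 (0.53 and 1.04). Over all genes tested, 34.0% were higher in both pairs and 8.21% higher at an unadjusted p under 0.05. Hoxb1 stood at 5.82 and 5.31 against 1.70 and 0.584 RPKM (1.67 ± 0.26, limma, adjusted p = 0.0501), and Hoxc9 at 3.96 and 3.03 against 1.27 and 0.677 RPKM (1.197 ± 0.18, limma, adjusted p = 0.0501). Both passed with small RNA loci left out (limma, adjusted p = 0.0287 for each). Replicate 2 of P3 Jmjd1bKO lay below 1 RPKM for both, so they reached the level for testing only with the P3 Jmjd1aKO libraries. Since only genes that reach 1 RPKM in at least 2 of the 4 libraries are tested, the untested Rhox and Hox genes were below that level.

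Lists of germ cell state had members on both sides. The list of undifferentiated spermatogonia had 31 genes tested, 7 higher and 17 lower in both pairs, and a median of -0.18. At an unadjusted p under 0.05 (limma), 3 of the 31 were higher and 3 lower, near the shares of all genes (8.21% and 9.16%). Zbtb16, a transcription factor of the stem cell pool, stood at 22.7 and 24.1 against 32.3 and 39.0 RPKM (-0.58 ± 0.30, limma, adjusted p = 0.354). Pax7, a marker of a rare spermatogonial subset, stood the other way, at 7.07 and 4.30 against 2.57 and 1.86 RPKM (1.03 ± 0.16, limma, adjusted p = 0.0501, and 0.0323 with small RNA loci left out). Of 14 genes of differentiating spermatogonia, 4 were higher and 6 lower in both pairs, with a median of -0.10. Over all genes tested these shares were 34.0% and 38.9%, near those of the differentiating list. At an unadjusted p under 0.05, 3 of the 14 were higher and 5 lower (8.21% and 9.16% of all genes), and the highest difference was 0.94. Sohlh2, a factor that starts differentiation, stood at 42.3 and 41.1 against 66.4 and 56.3 RPKM (-0.54 ± 0.08, limma, adjusted p = 0.0501, and 0.0339 with small RNA loci left out). Kit, the receptor that marks differentiation, stood at 18.7 and 13.2 against 27.7 and 18.5 RPKM (-0.50 ± 0.11, limma, adjusted p = 0.0822).

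Of 16 genes of pluripotency and primordial germ cells 10 were higher in both pairs and 3 lower, with a median of 0.24, and Dppa5a passed. Over all genes tested, 34.0% were higher in both pairs and 38.9% lower. At an unadjusted p under 0.05, 2 members were higher and 2 lower, against 8.21% and 9.16% of all genes. The lowest member was Tcl1, described above (log2 difference -1.09). Dppa3, a gene of primordial germ cells, stood at 3.93 and 4.14 against 1.51 and 0.445 RPKM (1.40 ± 0.29, limma, adjusted p = 0.0697, and 0.0469 with small RNA loci left out). Pou5f1, the pluripotency factor, stood at 138 and 163 against 131 and 122 RPKM (limma, adjusted p = 0.634). General germ cell genes differed little, with a median of -0.07 over 19, and Dazl, which binds and regulates germ cell mRNA, stood at 351 and 299 against 411 and 328 RPKM. The 20 genes of the piRNA pathway and retrotransposon silencing had a median of 0.05, and Piwil2, a PIWI protein gene, stood at 152.5 and 116.4 against 157 and 119 RPKM. The meiotic cohesin gene Rad21l stood at 19.2 and 13.7 against 12.9 and 7.82 RPKM (0.64 ± 0.12, limma, adjusted p = 0.0651, and 0.0469 with small RNA loci left out), in a list of 24 with a median of 0.13. Ldhc, the lactate dehydrogenase of the testis, stood at 15.2 and 15.1 against 8.86 and 6.46 RPKM (0.91 ± 0.17, limma, adjusted p = 0.0651, and 0.0434 with small RNA loci left out).

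Among the chromatin and immune lists, MHC class I and antigen presentation genes were higher in both pairs for 11 of 16 and lower for 2, with a median of 0.34 and 7 higher and 1 lower at an unadjusted p under 0.05. Over all genes tested, 34.0% were higher and 38.9% lower in both pairs. The shares at an unadjusted p under 0.05 were 8.21% and 9.16%. H2-D1, a class I heavy chain whose relatives can share its reads, stood at 31.4 and 22.1 against 22.8 and 12.6 RPKM (0.60 ± 0.17, limma, adjusted p = 0.125). The shared light chain gene B2m stood at 43.9 and 45.9 against 50.9 and 42.4 RPKM, with the pairs opposed. Imprinted genes had a median of 0.18 over 27, with Peg3 at 6.86 and 8.73 against 4.16 and 5.70 RPKM and H19 at 44.3 and 93.9 against 103 and 111 RPKM. Genes of H3K9 methylation had a median of -0.03 over 23, and the methyltransferase gene Ehmt1 stood at 11.3 and 13.8 against 14.8 and 18.9 RPKM (-0.39 ± 0.12, limma, adjusted p = 0.142). Among 24 germline genes of the Mage, Xlr and similar families the median was 0.00, and Tuba3b, a testis tubulin whose near-identical copies can share reads, stood at 289 and 315 against 472 and 504 RPKM (-0.69 ± 0.14, limma, adjusted p = 0.0696, and 0.0469 with small RNA loci left out). Targets of p53 (median 0.17), spermatid (0.08), interferon-stimulated (0.04) and immediate early genes (-0.01) had no member past the threshold with all loci.

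Markers of somatic cells showed how far the pairing held. Over 27 Sertoli genes the median difference was 0.00 from 0.27 in the replicate 1 pair and -0.25 in the replicate 2 pair, with 2 members higher and 2 lower in both. Amh, the hormone of immature Sertoli cells, stood at 3.33 and 108 RPKM in P3 Jmjd1aKO and at 2.30 and 149.6 RPKM in P3 Jmjd1bKO, a log2 difference of -0.04 ± 0.29. Leydig, stromal, leukocyte and endothelial medians lay between 0.06 and 0.10. Erythroid genes had a median of 0.69, from 0.21 and 1.13 in the pairs, and the globin gene Hba-a1 stood at 0.113 and 18.8 against 0.398 and 2.103 RPKM. Their summed level was 8.95 and 38.8 RPKM in P3 Jmjd1aKO and 6.76 and 11.4 RPKM in P3 Jmjd1bKO. The part of these cells in the gene differences above was not tested.

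**Figure D3:**
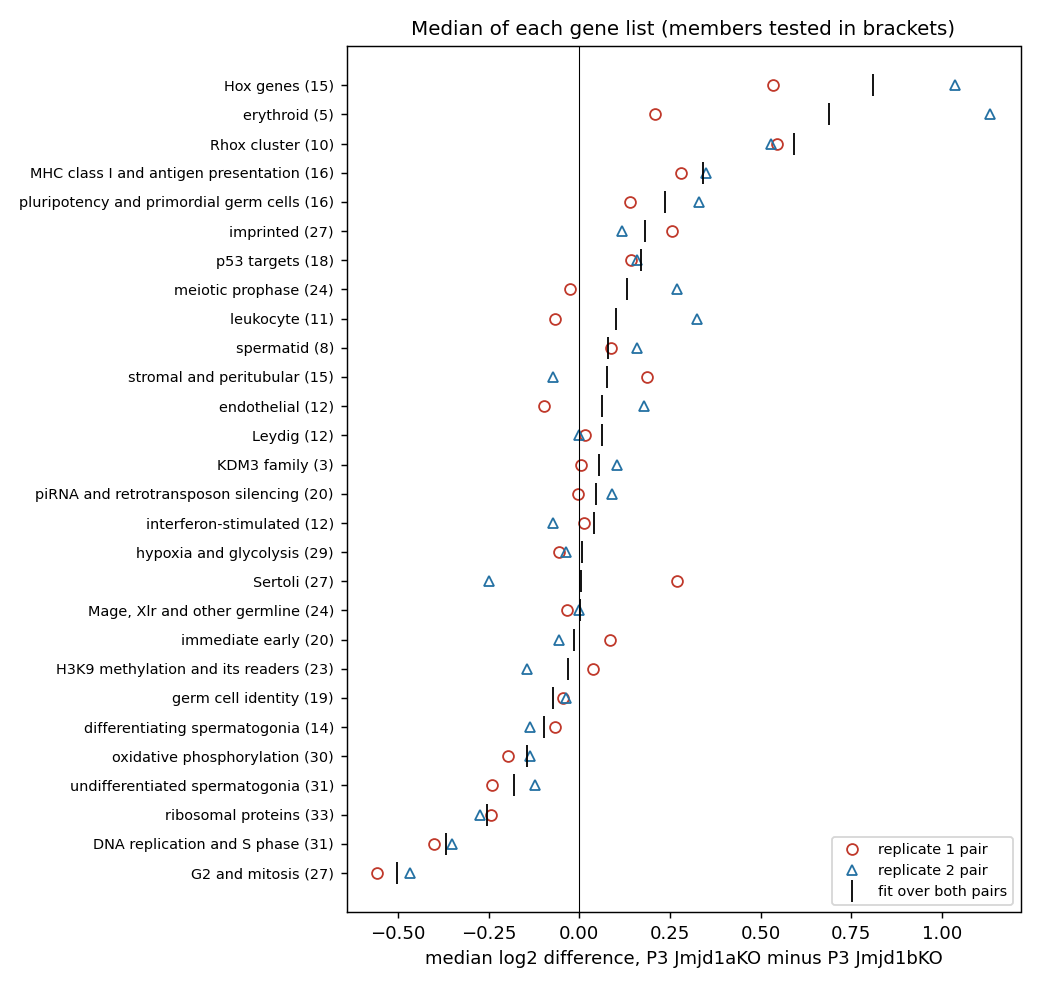
Median log2 difference P3 Jmjd1aKO minus P3 Jmjd1bKO of each gene list in the replicate 1 pair (circles), the replicate 2 pair (triangles) and over both (bars), with the number of members tested in brackets. G2 and mitosis (-0.50) and S phase (-0.37) lie lowest and Hox (0.81), erythroid (0.69) and Rhox genes (0.59) highest. The Hox list was chosen with the values known, so its rank is no finding. The Sertoli pairs lie on opposite sides of 0.

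The comparison of P3 DKO with P3 Ctrl shares no library with the one above. The same fit gave 1085 genes higher in P3 DKO (7.89%) and 1202 lower (8.74%), 2287 in all. Both comparisons take the spread of each gene from that fit, so a gene with a small spread tends to pass in both. The calls are therefore not independent. Without the replicate term the count was 516, with 211 higher and 305 lower. Of the 11 genes that differed between the single knockouts, 8 passed there in the same direction: Kdm3a, Ripk3, Dppa5a, Prph, Efna3, Gabbr1, Slc2a5 and 1700015G11Rik. The direction of Kdm3a was set by the genotypes, since P3 Jmjd1aKO and P3 DKO both lack it. Mir6898 and Mir8105 were listed at 0 in both groups, and Mir23a, higher in P3 Jmjd1aKO, was listed at 0 in P3 DKO. With small RNA loci left out, 94 of the 102 genes, Kdm3a again among them, passed in P3 DKO in the same direction. The share of all genes that passed in P3 DKO in that fit is not given here. Kdm3b, deleted in P3 DKO, went the opposite way: its log2 difference was 0.86 between the single knockouts and -1.25 in P3 DKO.

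Read from the other side, 972 of the 1085 genes higher in P3 DKO (89.6%) were higher in P3 Jmjd1aKO than in P3 Jmjd1bKO in both pairs, against 34.0% of all genes, and 9 were lower in both. Their median difference was 0.44 in the replicate 1 pair and 0.37 in the replicate 2 pair. Of the 1202 genes lower in P3 DKO, 1128 (93.8%) were lower in P3 Jmjd1aKO in both pairs, against 38.9% of all, and 10 were higher in both, with medians of -0.32 and -0.28. Among the genes called without the replicate term the shares were 199 of 211 (94.3%) and 285 of 305 (93.4%), an alternative chosen after seeing the data. Genes that differ by at least 0.5 in both pairs had the sign of P3 DKO minus P3 Ctrl in 347 of 365 higher (95.1%) and 117 of 129 lower (90.7%), where 48.9% and 51.0% of all genes lie on those sides. Across the 13587 genes other than small RNA loci, the single knockout difference and the P3 DKO difference correlated at r = 0.79 (Spearman 0.81), as a description over genes. The replicate 1 pair alone gave 0.80 and the replicate 2 pair, with the high Sertoli transcripts, 0.63. With small RNA loci kept r was 0.47 (Spearman 0.79). Likeness to P7 DKO minus P7 Ctrl was r = 0.06, and likeness to P3 Ctrl minus P3 WT r = 0.44.

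**Figure D4:**
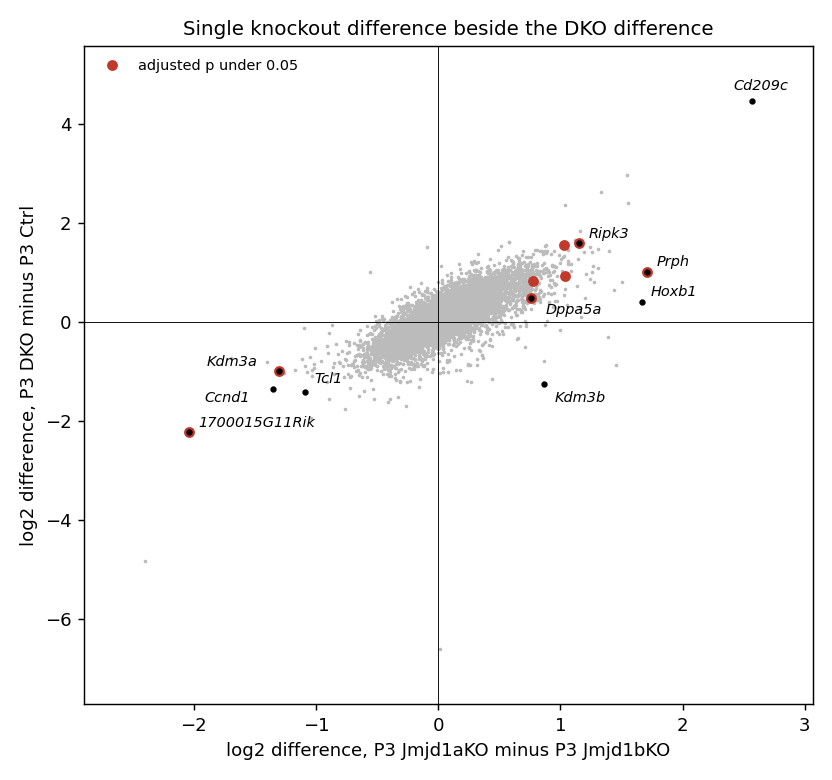
Log2 difference P3 Jmjd1aKO minus P3 Jmjd1bKO (horizontal) beside P3 DKO minus P3 Ctrl (vertical) for 13587 tested genes that are not small RNA loci, with the 8 genes past the threshold of the single knockout comparison in red and genes named in the text in black. The cloud runs along the diagonal (r = 0.79), and Kdm3b, at 0.86 and -1.25, lies off it.

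In P3 DKO against P3 Ctrl, G2 and mitosis genes had a median of -0.64 with 20 of 27 lower by the test, and S phase genes -0.52 with 23 of 31 lower. Rhox genes had a median of 0.70 with 7 higher and 1 lower of 10. Over all genes tested, 7.89% were higher and 8.74% lower in P3 DKO. The medians of 3 lists with small values had the opposite sign there: endothelial (0.06 between the single knockouts and -0.18 in P3 DKO), KDM3 family (0.05 and -0.996) and piRNA genes (0.05 and -0.01). The values of the single genotypes against P3 Ctrl, which share those controls, stand side by side as follows for genes picked as examples. Both genotypes are set at the level of replicate 1 by the replicate term. The same values over all genes are not given here, so the examples do not describe the other genes. Ripk3 differed from P3 Ctrl by 1.18 in P3 Jmjd1aKO and by 0.02 in P3 Jmjd1bKO, Ccnd1 by -1.51 and -0.16, Mcm5 by -0.67 and -0.11, and Rhox1 by 0.60 and -0.05. None of these passed (limma, adjusted p from 0.0760 for Ripk3 to 1 for the P3 Jmjd1bKO values).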

How the data were processed

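Per the labels, total RNA was extracted with the AllPrep micro kit and libraries were made with a stranded TruSeq mRNA kit. The submitters' processing notes name TopHat2 2.1.1, Cufflinks 2.1.1 and mm10, without their role. The authors deposited RPKM values for 24340 symbols per library, with no counts.

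Values were used as log2(RPKM + 1). The filter asked for 1 RPKM or more in 2 or more of the 4 single knockout libraries, which kept 13749 genes and removed 10591 (second-highest RPKM 1.0007 just inside and 0.9996 just outside). limma 3.58.1 in R 4.3.3 was fitted to all 14 libraries with a coefficient per group and a replicate term within the single knockouts (trended eBayes, two-sided, Benjamini-Hochberg over all genes tested, threshold 0.05), leaving 6 residual and 3.54 prior degrees of freedom. The median SE was 0.147, a 95% interval of ± 0.33. The method was tested on simulated data. An exact permutation of 2 against 2 cannot go below p = 0.333. Pairing was set by replicate number because both replicate 2 libraries carry high Sertoli transcripts, and the labels name no shared litter or day. Deviations of same-numbered libraries from their group means correlated across genes at r = 0.68 (Spearman 0.85).

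The genes compared and the gene lists were chosen with earlier results of these data known. Named were Kdm3a and Kdm3b, up to 12 genes per direction (those past the threshold first, then by the smaller within-pair difference with the same sign in both pairs and a mean of at least 3 RPKM), and from each list members past the threshold, otherwise the most abundant and the most changed. Names of predicted genes and small RNAs are given only where stated, and other named list members were chosen after their values were seen. Depth was estimated from RPKM steps of up to 633 genes per library, 65.7 to 74.0% of which gave near-whole fragments (within 0.2). Chance gives 40% for a total fixed in advance. The depth was chosen to make this share largest, so the share is no test of it. The alternatives were no replicate term, 4 libraries only, other pseudocounts, filters and scalings, small RNA loci left out, GC and length correction, and single libraries left out. Gene positions are from GENCODE M21 (GRCm38), found for 95.6% of symbols.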

Additional observations from a re-analysis of the deposited data

How the results depend on the processing

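The number of genes that differ between the single knockouts depended on how the spread was estimated, and quantile normalization changed some directions. Against 11 genes, the fit without the replicate block gave 5, the 4 libraries alone 947 with the replicate block (385 higher, 562 lower) and 10 without it, a pseudocount of 0.1 gave 7, no filter 6, median centring 18, quantile normalization 78 (53 higher, 25 lower), small RNA loci left out 102, and GC and length correction, chosen after seeing the data, 43. Leaving out a library or pair gave 4 to 308, the highest without P3 Ctrl replicate 1 (308) or 2 (307), also 149 without either P7 DKO library, 29 without either P3 DKO library, 6 without either P3 WT library and 4 without either P7 Ctrl library. The cause of these differences was not tested.

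Among list members, 2 that differed became 100 with the 4 libraries and the replicate block, 0 without the block there, 1 without a filter, 9 under quantile normalization, 16 without small RNA loci and 5 with GC and length correction, and 1 to 40 on leaving out libraries. The 8 genes shared with P3 DKO became 2 without the block, 4 with a pseudocount of 0.1, 2 without a filter, 14 median-centred, 69 under quantile normalization, 94 without small RNA loci and 36 with GC and length correction, and 1 to 282 on leaving out libraries. In P3 DKO against P3 Ctrl 2287 genes passed, and 516 without the block.

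Kdm3a kept its call except with the 4 libraries and no replicate block (-1.30, adjusted p = 0.279), and ran from -1.32 to -1.28 on leaving out a pair. Kdm3b passed with the 4 libraries and the replicate block (0.86, adjusted p = 0.0356), median-centred (0.86, 0.0482), under quantile normalization (0.89, 0.0306), without small RNA loci (0.86, 0.0287) and without a P3 Ctrl or P7 DKO library (0.0203 to 0.0333), and ran from 0.81 to 0.92 on leaving out a pair. Of the 6 higher protein-coding genes, Prph, Slc2a5 and Gabbr1 lost their calls with a pseudocount of 0.1, all but Efna3 without a filter, all but Dppa5a without the replicate block, and all 6 with the 4 libraries and no block, without either pair and without either P7 Ctrl library. Without either P3 WT library Ripk3, Slc2a5, Gabbr1 and Efna3 lost theirs.

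Likeness to P3 DKO moved from 0.47 to 0.36 with a pseudocount of 0.1, 0.41 without a filter, 0.43 under quantile normalization and 0.79 without small RNA loci, and from 0.34 to 0.47 on leaving out libraries. Repeatability between the pairs moved from 0.35 to 0.29 with a pseudocount of 0.1, 0.62 without small RNA loci, 0.29 at a mean of at least 5 RPKM and -0.43 with the pairs crossed.

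Under quantile normalization the medians of oxidative phosphorylation (-0.143 to 0.0149), germ cell identity (-0.0728 to 0.0611) and interferon-stimulated genes (0.0404 to -0.186) changed sign, as did 6 others (to values from -0.0450 to 0.0352), and that of ribosomal proteins went from -0.255 to -0.0132. Signs of genes that had not passed also reversed: under quantile normalization Fkbp6 (0.128), Dazl (0.0440), Bax (0.0947), B2m (0.0578), Cox4i1 (0.0864), Rplp1 (0), Ctsl (0.0757) and Fdx1 (0.05002), and with GC and length correction Fdx1 (0.0191). On leaving out a pair Bax ran from -0.0872 to 0.0219, B2m from -0.209 to 0.111, Fdx1 from -0.0696 to 0.0485, Vim from -0.193 to 0.701 and Hba-a1 from -0.328 to 2.67. RPKM holds no counts, so counting error at low levels such as those of Prph and Slc2a5 could not be given.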

Other observations

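Further genes among the 102 that passed with small RNA loci left out belong to none of the lists, and those below were picked with their values known. All 3 members of the Tmem63 family, which encodes mechanosensitive ion channels, were among them. Tmem63b stood at 25.9 and 15.2 RPKM in P3 Jmjd1aKO and at 13.6 and 8.05 RPKM in P3 Jmjd1bKO (log2 difference 0.86 ± 0.14), Tmem63a at 9.46 and 5.92 against 5.19 and 2.85 RPKM (0.80 ± 0.13), and Tmem63c at 2.52 and 1.75 against 1.09 and 0.623 RPKM (0.76 ± 0.14). Replicate 2 was the lower in each genotype, and the adjusted p from limma was 0.0376, 0.0383 and 0.0454 without the small RNA loci and 0.0539, 0.0539 and 0.0611 with them. Mycl, a relative of the growth regulator Myc, stood at 14.3 and 11.2 against 7.23 and 6.12 RPKM, without overlap between the genotypes.

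Lower genes in the same set included Cdca7, a chromatin protein gene induced in dividing cells, at 88.0 and 102.9 RPKM in P3 Jmjd1aKO against 127.9 and 149.5 RPKM in P3 Jmjd1bKO. The mitotic kinase gene Melk stood at 22.5 and 29.3 against 35.2 and 40.0 RPKM, and Dtymk, the thymidylate kinase of DNA synthesis, at 45.2 and 62.3 against 60.5 and 91.1 RPKM, with overlapping groups. Tle3, a transcriptional corepressor, stood at 46.7 and 38.8 against 76.4 and 71.7 RPKM (-0.78 ± 0.14). Glud1, the mitochondrial glutamate dehydrogenase, stood at 41.5 and 42.0 against 59.2 and 55.0 RPKM (-0.44 ± 0.07). Of these genes Tle3, Glud1, Melk, Cdca7 and Dtymk also passed as lower in P3 DKO against P3 Ctrl in that fit (limma, adjusted p from 0.00163 for Melk to 0.0138 for Tle3).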
